A study of Arabidopsis thaliana with 24 samples.

Results

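The stress NAC transcription factors described here are 9 Arabidopsis thaliana genes chosen by their locus codes: RD26 (AT4G27410), ANAC019 (AT1G52890), ANAC055 (AT3G15500), ATAF1 (AT1G01720), ATAF2 (AT5G08790), NAC032 (AT1G77450), NAC102 (AT5G63790), JUB1 (AT2G43000) and VNI2 (AT5G13180). Of these 9 genes, 8 were among the 20777 loci of the expression table, and ATAF2 was not analysed here. Plants were of the Col-0 wild type, and their total RNA was measured on 24 ATH1 arrays, 3 in each of 8 groups. The groups were seedlings at growth stage 1.03, of which the vegetative part was taken, and the third leaf in proliferation on day 9 (leaf area 0.1 mm2), in expansion on day 15 (7 mm2) and at maturity on day 22 (40 mm2), each from plants grown in vitro with 0 mM or 25 mM mannitol in the medium. Mannitol is a sugar alcohol used to withhold water from roots by osmosis. The 3 replicates come from independent experiments, and every sample is RNA pooled from many plants. The comparison asks whether a mild and lasting osmotic stress acts differently on leaves of different developmental stage.

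NAC factors are a plant-specific family of transcription factors that bind DNA through a conserved domain at the amino terminus. The members form several branches. RD26, ANAC019 and ANAC055 are close relatives that respond to dehydration, abscisic acid and jasmonate and bind the promoter of the dehydration gene ERD1. ATAF1, ATAF2, NAC032 and NAC102 form the ATAF branch, whose genes respond to wounding, drought, low sugar or low oxygen. JUB1 is induced by hydrogen peroxide, slows senescence and restrains growth through gibberellin and brassinosteroid genes, and VNI2 joins abscisic acid signals to leaf ageing and restrains xylem vessel formation.

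All values are log2 expression levels, and a gene was called changed at an adjusted p under 0.05 from a limma model over all loci. Array medians lay between 5.91 and 6.16, and arrays of a group correlated at 0.990 to 0.997. The division markers CYCB1;1, KN, AN3 and PCNA1 had their highest means in proliferating leaf. The senescence marker SAG12 lay under 4.10, the 25th percentile of all locus means, on all 24 arrays, whereas NAP, a senescence NAC factor, reached a mean of 10.2 in mature control leaf. Of the 2 markers of photosynthetic leaf, 0 were in the table. The summed level of the 4 root hair markers stayed between 6.04 and 6.46 on every array and that of the 3 shoot meristem markers between 5.76 and 6.46. In these pooled tissues, fewer cells of a type and less RNA per cell cannot be told apart.

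Under mannitol, JUB1 was the member that rose, and it did so in proliferating and expanding leaf, while ANAC055 was the member that fell, and it did so in mature leaf. JUB1 was 1.79-fold higher in proliferating leaf and 2.26-fold higher in expanding leaf. ANAC055 was 1.90-fold lower in mature leaf. The other members did not pass the test at any single stage in the limma model without replicate numbers. With the replicate number as a block within each stage, ATAF1 was also called in proliferating and expanding leaf, and JUB1 in seedlings. Over the members measured, 0 of 8 were called in seedlings, where 1.45% of all loci were called, 1 of 8 in proliferating leaf (1.81%), 1 of 8 in expanding leaf (7.65%) and 1 of 8 in mature leaf (4.83%). In seedlings, 1 of 8 members had an unadjusted p under 0.05 in limma, JUB1. The median change of the 8 members was 0.09 in seedlings, 0.37 in proliferating leaf, 0.35 in expanding leaf and -0.04 in mature leaf, against -0.01, -0.03, -0.02 and -0.04 over all loci.

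**Figure D1:**
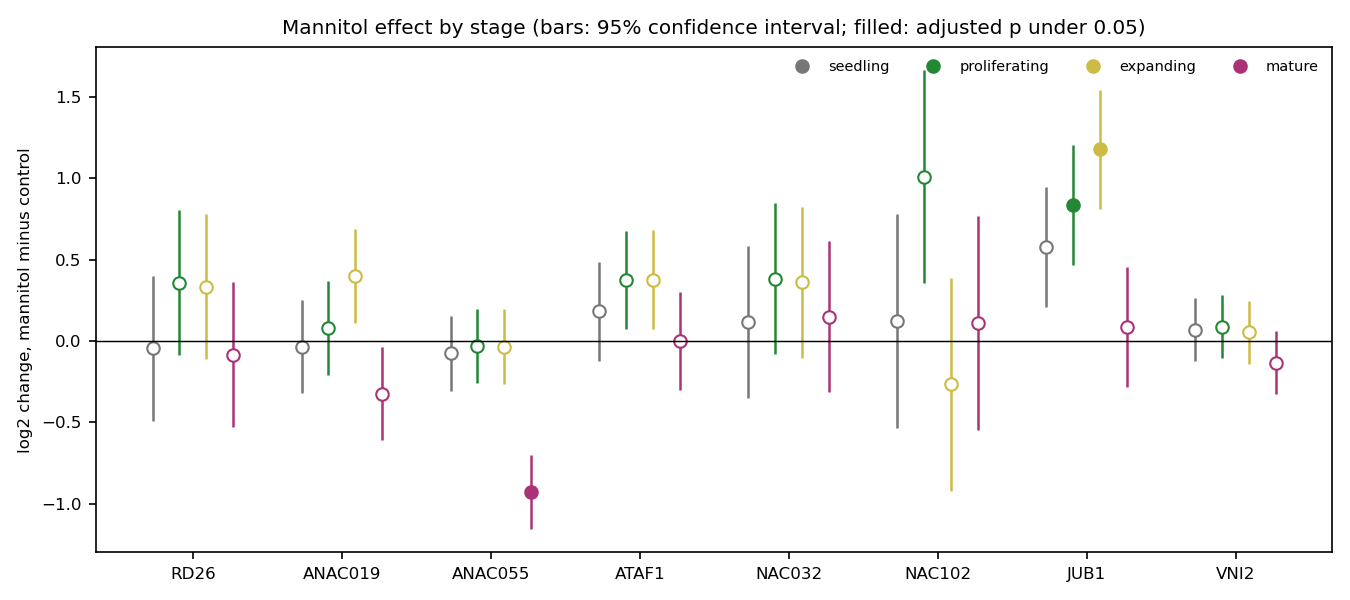
Mannitol effect on each of 8 stress NAC genes by stage. The vertical axis is the log2 change, mannitol minus control, with 3 arrays in each group, bars are 95% confidence intervals of the limma fit, and filled points have an adjusted p under 0.05. The filled points are JUB1 in proliferating leaf (0.84) and expanding leaf (1.18) and ANAC055 in mature leaf (-0.93).

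JUB1, the factor induced by hydrogen peroxide, is taken first. In expanding leaf its log2 levels were 3.69, 4.25 and 3.73 without mannitol and 5.19, 5.08 and 4.93 with it. The 3 mannitol arrays all lay above the 3 control arrays, as 9.3% of all loci did in that direction. The change was 1.18 ± 0.18 (SE, 3 arrays per group, adjusted p = 1e-04), and it stayed past the threshold in all 13 alternative analyses (other scaling, filters or variance models, a replicate block, or 1 array left out), with values of 1.07 to 1.36. The summed level of the guard cell markers MYB60 and KAT1 was 8.20 to 8.44 in the controls and 7.39 to 7.80 under mannitol at that stage, and that of the division markers was 8.43 to 8.60 and 8.81 to 8.91. Within the division sum AN3 went the other way, with means of 4.68 in the controls and 4.29 under mannitol. CYCB1;1, KN and PCNA1 had higher means under mannitol. The summed level of the senescence markers SAG12, NAP and SEN1 was 6.56 to 6.97 in the controls and 7.06 to 7.62 under mannitol. The part of the markers in the JUB1 change was not tested.

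In proliferating leaf JUB1 measured 3.62, 3.83 and 4.03 in the controls and 4.98, 4.25 and 4.76 under mannitol. The groups again did not overlap, which held for 7.11% of loci in that direction, and mannitol replicate 2 was the lowest of its group. The change was 0.84 ± 0.18 (adjusted p = 0.00969). That call was lost without control replicate 1 (adjusted p = 0.0757), without mannitol replicate 1 (0.103), without mannitol replicate 3 (0.0545) and when only the proliferating arrays were fitted (0.0942).

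In seedlings JUB1 read 3.68, 3.75 and 3.59 without mannitol and 4.21, 4.26 and 4.27 with it. All 3 mannitol arrays lay above the controls, as did 7.23% of loci. The change of 0.58 ± 0.18 had an adjusted p of 0.149 and was not called. Same-numbered control and mannitol arrays deviated together within seedlings, and with the replicate number as a block within each stage the change was called, at an adjusted p just under the threshold that rounds to 0.05. It was also called when only the seedling arrays were fitted (adjusted p = 0.00595). The summed level of the guard cell markers was 8.04 to 8.52 in the seedling controls and 7.24 to 7.70 under mannitol. The part of these markers in the JUB1 change was not tested.

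In mature leaf JUB1 did not pass the test. The controls stood at 4.25, 3.74 and 4.10 and the mannitol arrays at 4.39, 3.79 and 4.16, so the groups overlapped almost fully. The change was 0.09 ± 0.18 (95% interval -0.28 to 0.45, adjusted p = 0.842). The mannitol effect on JUB1 was smaller in mature than in expanding leaf, and the difference passed its own test (-1.09 ± 0.25, adjusted p = 0.0154). Without mature mannitol replicate 2 that difference was -0.93 and its adjusted p 0.0566. Between mature and proliferating leaf the difference was -0.75 ± 0.25 (adjusted p = 0.129), which was called with the block within each stage (0.0465) and without proliferating mannitol replicate 2 (0.0295).

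Without mannitol JUB1 was nearly flat over the 4 stages. Its control means were 3.67, 3.83, 3.89 and 4.03 from seedlings to mature leaf, a span of 0.36 against a pooled within-group SD of 0.24. Each of these 4 means lay under the 25th percentile of locus means, and the table carries no detection call, so how far the control levels stand above array background was not tested. In the order of the 8 group means, the expanding mannitol leaf came first (5.07), then the proliferating mannitol leaf (4.66), and each group overlapped its next neighbour in the order.

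**Figure D2:**
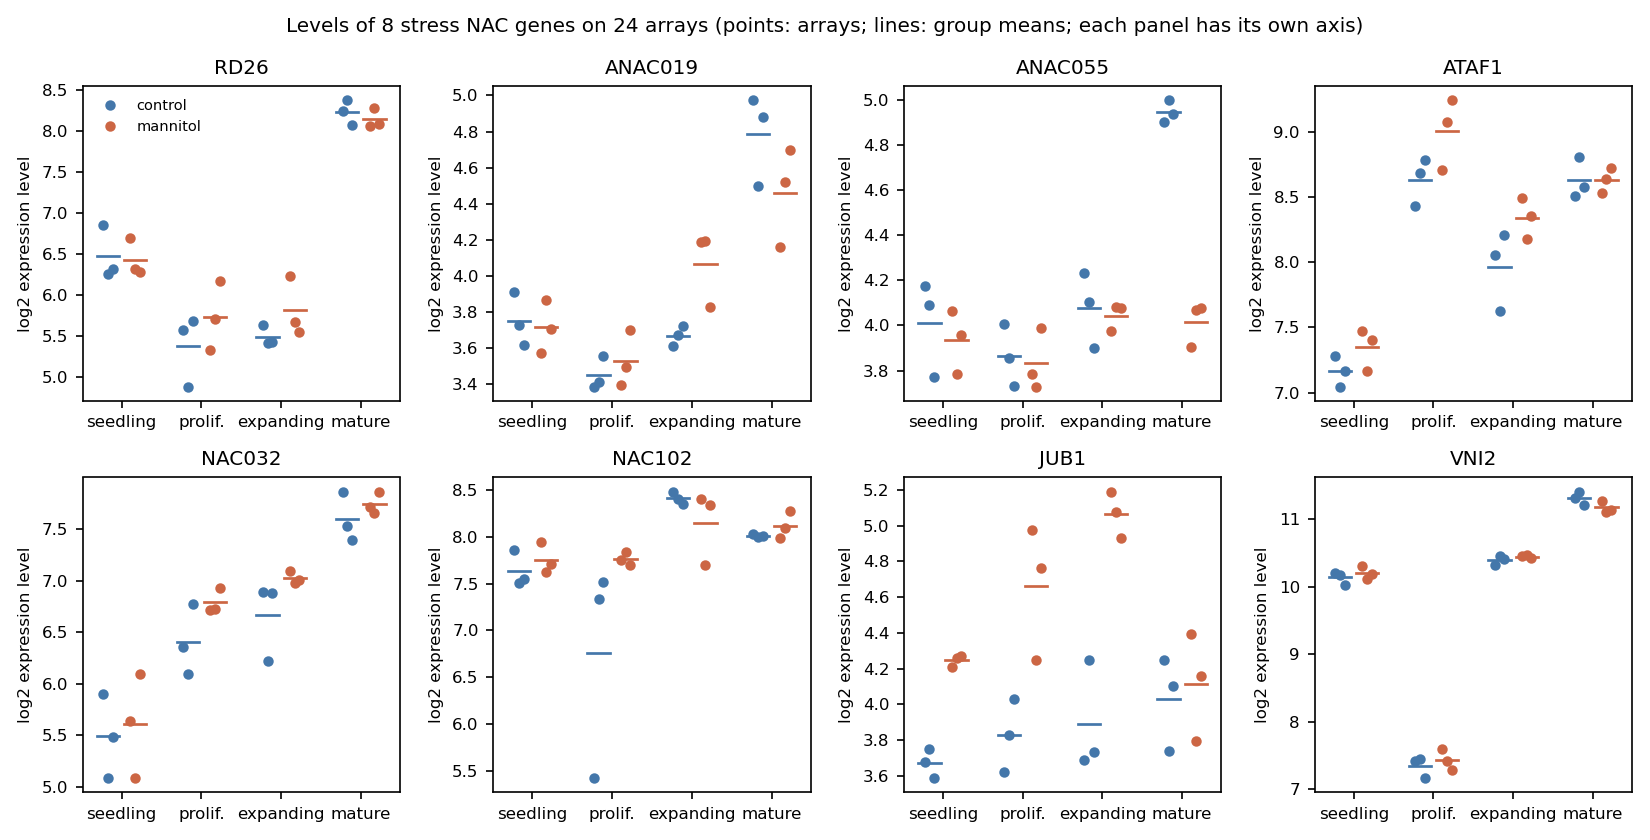
Log2 expression level of each of 8 stress NAC genes on 24 arrays, by stage and treatment. Points are arrays, short lines are means of 3 arrays, and each panel has its own axis that does not start at 0. JUB1 mannitol points stand above the controls at the first 3 stages, ANAC055 is high in mature control leaf alone, and VNI2 is lowest in proliferating leaf.

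Of the RD26 branch, ANAC055 alone was called in mature leaf. ANAC055, a jasmonate and abscisic acid response factor, measured 4.90, 5.0 and 4.94 in mature control leaf and 3.91, 4.07 and 4.08 in mature mannitol leaf. The 2 groups stood apart, as 14.2% of loci did in that direction. The change was -0.93 ± 0.11 (adjusted p = 1.92e-05), and in all 12 alternatives that tested it the call stayed, at -0.98 to -0.87. Among all loci ANAC055 ranked 28 by p value in that comparison.

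The mature control leaf was the only group in which ANAC055 left its low range. Means of the other 7 groups ran from 3.83 to 4.08, all under the 25th percentile of locus means, and each of these 7 overlapped its neighbour in the order. The mannitol changes at the other stages were -0.08 in seedlings, -0.03 in proliferating leaf and -0.04 in expanding leaf, with adjusted p of 0.922 to 0.994. The effect in mature leaf differed from that in expanding leaf by -0.89 ± 0.16 (adjusted p = 0.00208) and from that in proliferating leaf by -0.90 ± 0.16 (adjusted p = 0.00168). In a moderated F test of equal effects over the 4 stages ANAC055 was the 1 member called (F = 15.8, adjusted p = 0.00158), where 3.69% of loci were called. JUB1 had F = 6.72 and an adjusted p of 0.0554 there. With the block within each stage its F was 10.3 (adjusted p = 0.0172), and over all 30 alternatives its adjusted p ran from 0.0165 to 0.16, with 8 of them past the threshold.

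In mature leaf, where ANAC055 fell, the senescence marker SEN1 was called lower and NAP was not called. SAG12 had means of 3.41 without and 3.45 with mannitol. The summed level of SAG12, NAP and SEN1 was 10.4 to 10.9 in mature control leaf and 9.84 to 10.2 in mature mannitol leaf, and SAG12 was low on every array. Other marker sums stood apart there too. That of the guard cell markers was 7.38 to 7.61 without and 7.15 to 7.28 with mannitol, that of the division markers 6.86 to 7.11 and 7.19 to 7.23, and that of the shoot meristem markers 5.98 to 6.33 and 5.81 to 5.95. Single genes did not all go with their sums. For MYB60 the means were 7.00 without and 6.56 with mannitol, and for KAT1 5.61 and 5.80. Of the division markers, KN (5.20 and 5.44) and PCNA1 (5.63 and 6.05) were higher with mannitol. CYCB1;1 (4.43 and 4.20) and AN3 (4.34 and 4.23) were lower. The part of the markers in the result was not tested.

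ANAC019, the nearest relative of ANAC055 in this set, moved less. In mature leaf it read 4.97, 4.50 and 4.88 without mannitol and 4.16, 4.52 and 4.70 with it, and the groups overlapped. The change of -0.32 ± 0.14 was not called (adjusted p = 0.194). In expanding leaf the levels were 3.61, 3.68 and 3.72 in the controls and 4.19, 4.19 and 3.83 under mannitol, apart from each other but not called (0.40 ± 0.14, adjusted p = 0.0874). Without mature control replicate 2 the first change was -0.47 (adjusted p = 0.0468), and without expanding mannitol replicate 3 the second was 0.52 (0.0367). The 2 estimates have opposite signs, and their difference was -0.72 ± 0.20 (adjusted p = 0.0417). That call was lost in 11 of 18 alternatives, including 8 of the 12 fits that leave out 1 array, with adjusted p of 0.0103 to 0.122 over all of them.

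RD26, the abscisic acid response factor, did not pass the test for mannitol at any stage. Its estimates were -0.05 in seedlings, 0.36 in proliferating leaf, 0.33 in expanding leaf and -0.09 in mature leaf, each with an SE of 0.22. In mature leaf the 95% interval ran from -0.53 to 0.36. RD26 levels there were 8.25, 8.38 and 8.08 without and 8.07, 8.28 and 8.09 with mannitol, which overlap.

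In the ATAF branch 0 of 3 measured genes were called at a single stage. ATAF1, a regulator of abscisic acid synthesis and senescence genes, read 8.43, 8.68 and 8.78 in proliferating control leaf and 8.70, 9.07 and 9.24 under mannitol. In expanding leaf the values were 8.06, 7.63 and 8.21 against 8.49, 8.18 and 8.35. The groups overlapped at both stages, yet within each replicate number the mannitol array was the higher one. The changes were 0.38 ± 0.15 at both stages, with adjusted p of 0.311 and 0.138. With the replicate number as a block within each stage they were called, at adjusted p of 0.0349 and 0.0142. In mature leaf the ATAF1 change was -0.00 ± 0.15.

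Averaged over the 4 stages, ATAF1 was higher under mannitol by 0.23 ± 0.07 (adjusted p = 0.0423), JUB1 by 0.67 ± 0.09 (1.25e-05), and ANAC055 was lower (-0.27 ± 0.06, 0.00206). These are 3 of 8 members, against 10.6% of loci. The ATAF1 call was lost in 15 of the 24 fits that leave out 1 array, with adjusted p of up to 0.0867. The ANAC055 mean rests on mature leaf, as the values by stage show. NAC032, a relative of ATAF1 and a factor of stress and sugar starvation, had a mean change of 0.25 ± 0.11 (adjusted p = 0.176). With the block within each stage its adjusted p was 0.0493. In expanding leaf the NAC032 controls read 6.89, 6.22 and 6.88 and the mannitol arrays 7.09, 6.97 and 7.00, which did not overlap (change 0.36 ± 0.22, adjusted p = 0.436).

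NAC102, a factor known from seeds germinating in low oxygen, had the largest estimate of the ATAF branch and the least certain one. In proliferating leaf the controls stood at 5.42, 7.33 and 7.51 and the mannitol arrays at 7.75, 7.84 and 7.70. Control replicate 1 lay far under the other controls, and the groups did not overlap. The change was 1.01 ± 0.32 (adjusted p = 0.142). Without that array it was 0.34 (adjusted p = 0.514), and without control replicate 3 it was 1.39 (adjusted p = 0.0215), so the value depends on which control is kept.

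On that array, NAC102 had the lowest deviation from its group mean of all 20777 loci (-1.34), and 6 of the 10 lowest loci were genes of the plastid genome. The mean level of 73 plastid genome loci there was 10.1, against 10.4 and 10.3 in the other controls of that stage. Over the 24 arrays, with stage means subtracted, NAC102 and the plastid mean correlated at 0.71, and at 0.44 over 23 arrays without that one. After stage means were subtracted, the 3 loci most like NAC102 over the 24 arrays were ATCG01110 (r = 0.89), ATCG00520 (0.83) and ATCG00680 (0.82), all of the plastid genome. NAC102 itself is a nuclear gene. These correlations are descriptions, and what lies behind them was not tested.

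**Figure D3:**
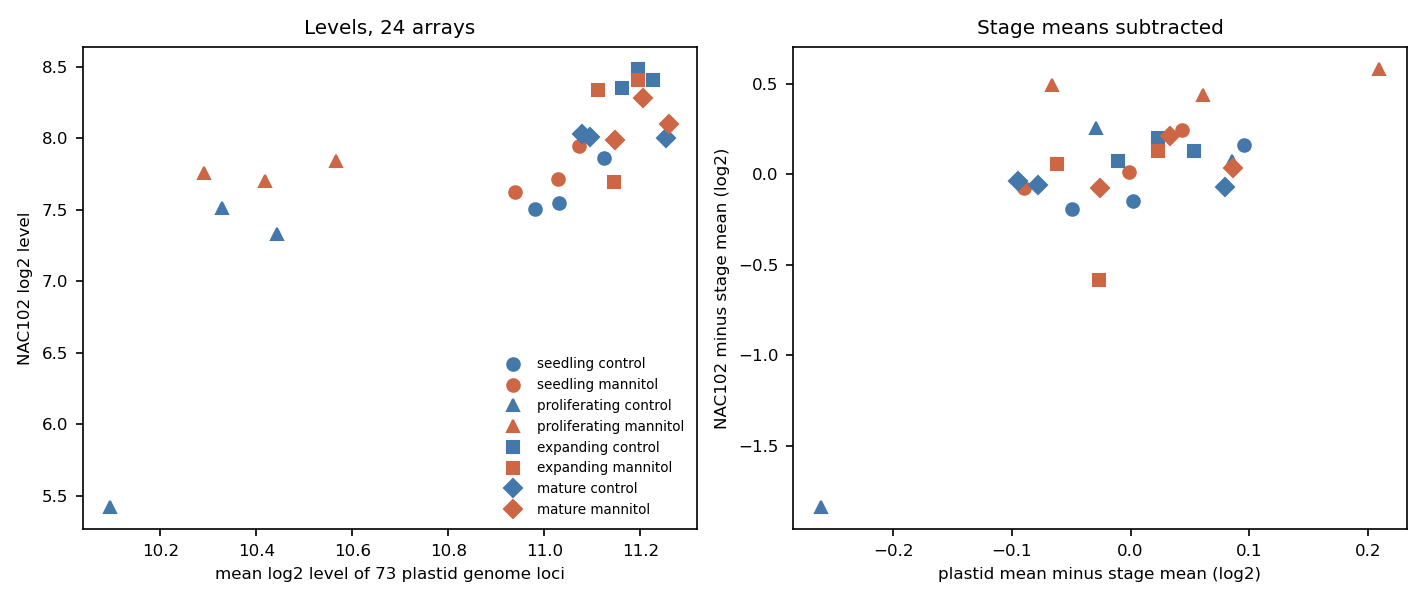
NAC102 log2 level against the mean log2 level of 73 plastid genome loci on 24 arrays, as measured (left) and with the mean of the 6 arrays of each stage subtracted (right). Shapes mark stages and colours mark treatment. Proliferating control replicate 1 is the lowest point on both axes, at a NAC102 level of 5.42.

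VNI2, the factor of leaf ageing and xylem, did not pass the test for mannitol at any stage. Its changes ran from -0.13 in mature leaf to 0.09 in proliferating leaf with an SE of 0.09, and the intervals at all 4 stages lay between -0.33 and 0.28. Its replicates were close, with a pooled within-group SD of 0.10.

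As control leaves went from expansion to maturity, 6 of 8 members rose and 0 fell, where 18.8% of all loci rose and 40.4% were called in either direction. RD26 rose most, from 5.63, 5.41 and 5.42 to 8.25, 8.38 and 8.08. No array of one group came near the other, and the change was 2.75 ± 0.22 (6.71-fold, adjusted p = 5.69e-10). ANAC019 rose by 1.11 ± 0.14, NAC032 by 0.93 ± 0.22, VNI2 by 0.91 ± 0.09, ANAC055 by 0.87 ± 0.11 and ATAF1 by 0.67 ± 0.15, with adjusted p of 0.00172 or less. NAC102 (-0.40 ± 0.32) and JUB1 (0.14 ± 0.18) were not called. Over the same step the summed senescence markers went from between 6.56 and 6.97 to between 10.4 and 10.9, the guard cell markers from between 8.20 and 8.44 to between 7.38 and 7.61, the division markers from between 8.43 and 8.60 to between 6.86 and 7.11, and the vascular markers from between 10.07 and 10.42 to between 10.61 and 10.97. Of the vascular markers, the mean of SUC2 went from 10.14 to 10.62 and that of APL from 7.02 to 6.94. The part of the markers in these changes was not tested.

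VNI2 had the widest range of all members over leaf growth. Proliferating control leaf read 7.42, 7.44 and 7.17, expanding control leaf 10.32, 10.45 and 10.41, and mature control leaf 11.31, 11.41 and 11.21. The 3 groups were well apart from each other. The first step was 3.05 ± 0.09 (8.29-fold, adjusted p = 1.05e-17). The vascular markers SUC2 and APL rose along with it. Their summed level went from between 5.55 and 5.70 in proliferating control leaf to between 10.1 and 10.4 in expanding control leaf. Other marker sums changed over that step too. That of the guard cell markers went from between 4.86 and 5.07 to between 8.20 and 8.44. The senescence sum went from between 5.79 and 6.01 to between 6.56 and 6.97, with NAP higher and SAG12 and SEN1 lower in mean. The root hair sum went from between 6.06 and 6.22 to between 6.33 and 6.43, and the division sum fell, as given below. The part of the markers in the VNI2 change was not tested.

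From proliferating to expanding control leaf, 3 of 8 members were called, where 60.6% of loci were called. Besides VNI2, NAC102 was higher in expanding leaf (1.66 ± 0.32, adjusted p = 7.66e-05), by 0.99 (1.11e-05) without proliferating control replicate 1. ATAF1 was lower (-0.67 ± 0.15, adjusted p = 0.00037), and its order differed from that of the other members: it was high in proliferating (8.63) and mature leaf (8.63) and lower in expanding leaf (7.96) and seedlings (7.16). The summed level of the 4 division markers was 12.3 to 12.5 in proliferating control leaf and 8.43 to 8.60 in expanding control leaf.

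The same steps were followed in leaves grown on mannitol. These comparisons use other arrays than those of control leaves, and the test of the difference is that of the mannitol effects given above. RD26 was higher in mature than in expanding leaf by 2.33 ± 0.22, VNI2 by 0.73 ± 0.09, NAC032 by 0.72 ± 0.22 and ANAC019 by 0.39 ± 0.14. JUB1 was lower by 0.95 under mannitol (-0.95 ± 0.18, adjusted p = 0.00013). These are 5 of 8 members, where 40.1% of loci were called. ANAC055, which rose on control medium, differed by -0.03 ± 0.11 between mature and expanding mannitol leaf (adjusted p = 0.885). The ANAC019 call (adjusted p = 0.0273) was lost when only those arrays were fitted (0.0706) and without expanding mannitol replicate 3 (0.169), mature mannitol replicate 2 (0.0828) or mature mannitol replicate 3 (0.172).

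Between proliferating and expanding mannitol leaf, 3 of 8 members were called (65% of loci), namely VNI2 (3.02 ± 0.09), ANAC019 (0.54 ± 0.14) and ATAF1 (-0.66 ± 0.15). JUB1 stood at 0.40 ± 0.18 (adjusted p = 0.051), and 5 of 12 alternatives called it. The mannitol effect itself did not pass a test of difference between these 2 stages for any member. That count is 0 of 8, against 1.3% of loci, and the lowest adjusted p was 0.215, for NAC102, the 1 member with an unadjusted p under 0.05 in limma. Between mature and expanding leaf, 3 of 8 members differed in their mannitol effect (3.41% of loci), which were ANAC019, ANAC055 and JUB1, all towards a lower effect in mature leaf. Between mature and proliferating leaf it was ANAC055, 1 of 8 (2.64% of loci).

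The order of the 8 groups set the members apart. For RD26 both mature groups (8.23 and 8.15) stood above both seedling groups (6.48 and 6.43), which stood above the 4 groups of proliferating and expanding leaf (5.38 to 5.82). Control and mannitol overlapped at every stage. For NAC032 the mature groups came first (7.74 and 7.59) and the seedlings last (5.61 and 5.49). VNI2 ranked by stage alone, with mature, expanding, seedling and proliferating groups each apart from the next. NAC102 was highest in expanding control leaf (8.42). Its neighbours overlapped except between mature control leaf (8.01) and proliferating mannitol leaf (7.76).

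Genes reported in the literature as targets of the members were followed next, from a list of 23 genes of which 22 were measured. In seedlings and in proliferating leaf limma called 0 of 22, with 4 and 2 of them at an unadjusted p under 0.05. With the replicate block within each stage, 1 rose and 1 fell in proliferating leaf. In expanding leaf 3 rose and 1 fell, and in mature leaf 8 rose and 4 fell. Of all loci, 1.45%, 1.81%, 7.65% and 4.83% were called from seedlings to mature leaf. The median change of the list was 0.10 in expanding and 0.09 in mature leaf, against -0.02 and -0.04 over all loci. Leaving out 1 array moved the number that rose in expanding leaf to between 2 and 4 and removed the single fall in each such fit. In mature leaf such fits gave between 4 and 8 rises and between 2 and 4 falls. The 4 rises were found without mature control replicate 1.

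VNI2 is reported to activate COR15A, COR15B, RD29A and RD29B. The dehydration gene RD29A rose by 1.52 ± 0.30 in expanding leaf (adjusted p = 0.00161) and the cold-regulated genes COR15B by 1.25 ± 0.21 (0.000403) and COR15A by 0.88 ± 0.24 (0.022), while RD29B stood at 0.31 ± 0.15 (0.259). In seedlings and proliferating leaf none of the 4 was called, with values of -0.59 to 0.65. In mature leaf RD29B, a gene of the abscisic acid response, rose by 1.61 ± 0.15 (3.65e-07), from a mean of 5.91 to one of 7.52. COR15A, COR15B and RD29A rose there as well, by 1.12, 1.03 and 1.40. The VNI2 value in mature leaf was -0.13 ± 0.09. These target genes also stand in the list of dehydration and abscisic acid markers, so the 2 lists are not separate.

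JUB1 is reported to activate DREB2A and the DELLA genes GAI and RGL1 and to repress GA3OX1, DWF4 and PIF4. All 6 were measured and are given here whatever their result. In expanding leaf, where JUB1 rose, DREB2A was lower under mannitol (-0.56 ± 0.17, adjusted p = 0.0488), and that call was lost in each fit without 1 array of the stage. RGL1 stood at -0.44 ± 0.14 (0.0532), GA3OX1 at 0.38 ± 0.17 (0.217), PIF4 at 0.10 ± 0.12 (0.743), DWF4 at 0.09 ± 0.17 (0.863) and GAI at 0.00 ± 0.11 (0.996). In proliferating leaf DREB2A stood at 0.54 ± 0.17 (0.152), and none of the 6 was called. In mature leaf, where the JUB1 estimate was 0.09, GA3OX1, an enzyme of gibberellin synthesis, rose by 0.91 ± 0.17 (0.00247), DWF4, an enzyme of brassinosteroid synthesis, by 0.63 ± 0.17 (0.037) and GAI by 0.38 ± 0.11 (0.0365), and DREB2A was lower (-0.65 ± 0.17, 0.0296). PIF4 is also the chromosomal neighbour of JUB1 in the TAIR10.1 gene table, and its changes were 0.02, 0.07, 0.10 and 0.25 from seedlings to mature leaf, none called.

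ATAF1 is reported to activate NCED3, ORE1 and the trehalase gene TRE1 and to repress GLK1. In mature leaf ORE1, itself a senescence NAC factor, was lower under mannitol (-1.38 ± 0.19, adjusted p = 7.97e-05), with a mean of 5.98 in control and 4.61 in mannitol leaf. TRE1 was lower too (-0.76 ± 0.15, 0.00336). NCED3, an enzyme of abscisic acid synthesis, stood at 0.09 ± 0.29 and GLK1, a factor of chloroplast upkeep, at 0.09 ± 0.11. The ATAF1 value there was -0.00 ± 0.15. In proliferating leaf, where ATAF1 stood at 0.38, GLK1 was at -0.42 ± 0.11 (adjusted p = 0.0549), ORE1 at 0.16, TRE1 at -0.02 and NCED3 at -0.15. In expanding leaf, where ATAF1 stood at 0.38 as well, TRE1 was at -0.40 ± 0.15 (0.11), GLK1 at -0.06, ORE1 at 0.20 and NCED3 at 0.28. None of the 4 was called at these stages or in seedlings. ERD1, whose promoter RD26, ANAC019 and ANAC055 bind, stood between -0.08 and 0.13 at the 4 stages and was not called. Other genes of the target list were called in mature leaf, where ANAC055 fell. There ICS1 rose by 0.59 ± 0.13 (adjusted p = 0.0076) and BSMT1 was lower (-0.31 ± 0.09, 0.0398). Neither was called at the other stages.

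**Figure D4:**
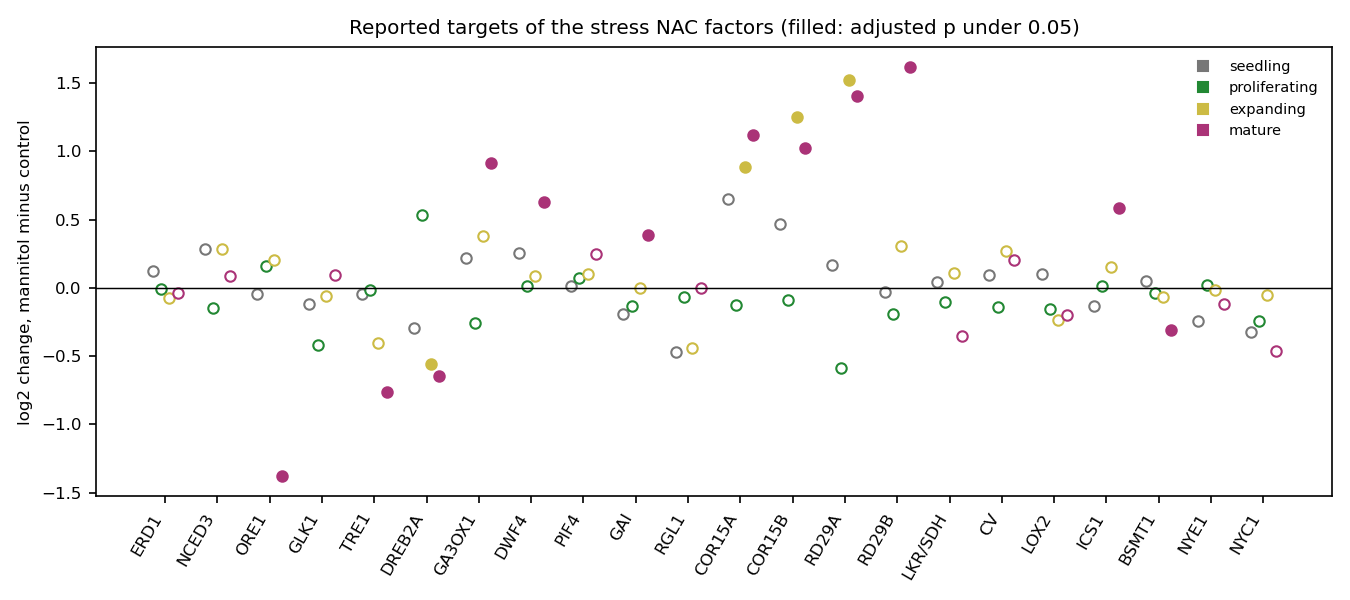
Mannitol effect on 22 reported targets of the stress NAC factors at 4 stages. The vertical axis is the log2 change, mannitol minus control, from 3 arrays per group, and filled points have an adjusted p under 0.05. Filled points are found in expanding and mature leaf, led by RD29B in mature leaf (1.61) and, on the lower side, by ORE1 in mature leaf (-1.38).

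Regulators upstream of the members were followed in a list of abscisic acid and jasmonate genes, of which 14 of 15 were measured. None fell at any stage in limma, and 0, 2, 4 and 1 rose from seedlings to mature leaf, with 1 in seedlings at an unadjusted p under 0.05. Of all loci, 1.45%, 1.81%, 7.65% and 4.83% were called in either direction. The list medians were 0.07, 0.12, 0.29 and 0.11, against -0.01, -0.03, -0.02 and -0.04 over all loci. The jasmonate repressor gene JAZ1 rose in proliferating (1.25 ± 0.24, adjusted p = 0.00394), expanding (1.60 ± 0.24, 9.39e-05) and mature leaf (0.85 ± 0.24, 0.0432). In expanding leaf the phosphatase genes ABI1 (0.53 ± 0.12), PP2CA (0.80 ± 0.21) and HAI1 (1.18 ± 0.23), brakes of abscisic acid signalling, rose as well. Without expanding control replicate 1 the count there was 2. The single rise in mature leaf was lost without control replicate 1 or 3 and without any 1 of the mannitol arrays of that stage.

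Dehydration and abscisic acid markers numbered 13 of 15 measured, and 1, 1, 7 and 5 rose from seedlings to mature leaf, with 0 falls. Of all loci, 1.45%, 1.81%, 7.65% and 4.83% were called in either direction. The list medians were 0.17, -0.06, 0.66 and 0.49, against -0.01, -0.03, -0.02 and -0.04 over all loci. RD22, a gene of the dehydration response, was called at all 4 stages, with changes of 0.87, 0.71, 1.38 and 1.09. Without expanding control replicate 1 or expanding mannitol replicate 1 the count in expanding leaf was 4. From expanding to mature control leaf all 13 rose, with a median of 1.81, alongside the 6 members named above. Over that step 18.8% of all loci rose, and the median of all loci was 0.01.

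Of the 14 listed genes of senescence and chlorophyll breakdown, 13 were measured. From seedlings to mature leaf their median changes were 0.02, 0.02, 0.15 and -0.11, against -0.01, -0.03, -0.02 and -0.04 over all loci. The shares of all loci called were 1.45%, 1.81%, 7.65% and 4.83%. SAG21, a gene of a late embryogenesis abundant protein, and WRKY53 were the 2 that rose in each of the first 3 stages. SAG21 rose by 3.05 ± 0.37 in proliferating and 3.22 ± 0.37 in expanding leaf, and WRKY53, a WRKY factor of senescence, by 1.34 ± 0.23 and 1.52 ± 0.23. In seedlings the count of 2 fell to 0 without control replicate 3, mannitol replicate 2 or mannitol replicate 3. In mature leaf 3 genes fell and 0 rose, namely ORE1, its relative ORS1 (-0.49 ± 0.14, adjusted p = 0.0383) and SEN1 (-1.09 ± 0.26, 0.0172). That count was 1 without mature control replicate 3 or mature mannitol replicate 2. The mannitol effect differed between mature and expanding leaf for SAG21 (-2.62 ± 0.52, adjusted p = 0.0054), WRKY53 (-1.48 ± 0.32, 0.0105) and ORE1 (-1.58 ± 0.26, 0.00118). With the replicate block within each stage, 4 rose in expanding leaf and 5 fell in mature leaf.

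The reference gene table names 92 further NAC loci, of which 77 were measured. From seedlings to mature leaf 2, 3, 2 and 4 of the 77 were called, where 1.45%, 1.81%, 7.65% and 4.83% of all loci were. Nothing particular to the family is read from these counts. NAC036 (AT2G17040), a NAC gene with reported effects on leaf growth, had larger positive estimates than any member, with 1.88 ± 0.25 in seedlings, 1.38 in proliferating and 2.76 in expanding leaf, and 0.58 in mature leaf, where it was not called. Its mean rose from 4.60 to 7.37 in expanding leaf. NAC053 (AT3G10500), a factor held at membranes, rose at the same 3 stages by 0.59, 0.67 and 0.79. The NAC053 call in seedlings was lost in 6 of 13 alternatives, with adjusted p of up to 0.158, and that in proliferating leaf in 2 of 13. NAC13 (AT1G32870), a regulator of the mitochondrial stress response, rose in proliferating leaf by 0.96 (adjusted p = 0.00109).

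In mature leaf ORE1 (-1.38), NAC046 (-0.71, AT3G04060) and ORS1 (-0.49), NAC genes known from senescence, were called lower, as was ANAC055. The ORS1 call was lost in 7 of 13 alternatives, among them all 6 fits that leave out 1 array of mature leaf, with adjusted p of up to 0.157. NAP, another senescence NAC gene, had means of 10.2 without and 9.65 with mannitol and was not called. NAC069 (AT4G01550), another membrane-held factor, rose there by 0.82 (adjusted p = 0.000474). The count of falls in mature leaf was 3, and 5 without mature control replicate 2. In seedlings each fit without 1 array called 1 other NAC gene in place of 2. In proliferating leaf 1 was called in place of 3 when only the arrays of that stage were fitted.

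**Figure D5:**
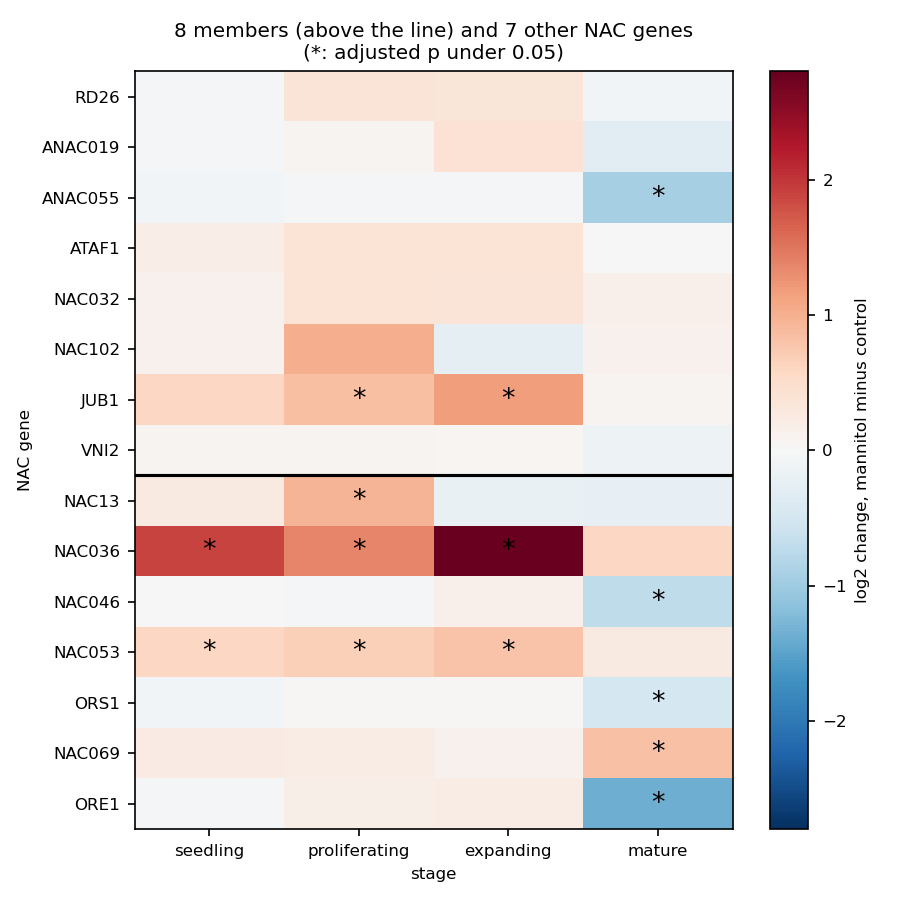
Mannitol effect on the 8 members, above the line, and on the 7 other NAC genes called at 1 or more stages, below it. Colour is the log2 change, mannitol minus control, and an asterisk marks an adjusted p under 0.05. The strongest colours belong to NAC036 in expanding leaf (2.76) and ORE1 in mature leaf (-1.38), and JUB1 has an asterisk in proliferating and expanding leaf.

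Genes with patterns most like each member were found by Pearson correlation over the 24 arrays. By level, JUB1 was closest to CYP71A13 (r = 0.93), an enzyme of camalexin synthesis, the arabinogalactan protein gene AGP5 (0.92) and AT1G56150 (0.91). With stage means subtracted, the closest were XBAT34 (0.94), AT4G38550 (0.94) and AT3G28940 (0.94). XBAT34 rose by 2.37 in seedlings, 3.02 in proliferating and 3.50 in expanding leaf and stood at -0.05 in mature leaf, and CYP71A13 stood at 2.08, 2.42, 2.65 and 0.37.

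ANAC055 with stage means subtracted was closest to BGAL4 (0.87), NIT4 (0.84) and PLPB (0.84). BGAL4 fell by 1.15 in mature leaf (adjusted p = 0.000121) and NIT4 by 0.91 (5.06e-06), and neither was called at the other 3 stages. RD26 by level was closest to AT1G33050 (0.97), the drought-induced gene DI19 (0.97) and NCED3 (0.96). ATAF1 with stage means subtracted was closest to ACR7 (0.87), MPK5 (0.87) and the dehydration-responsive homeobox gene HB-12 (0.86). VNI2 by level was closest to AT2G35840, the aquaporin gene PIP1A and PAT1, each above 0.99. ANAC019 by level was closest to CYP81D1 (0.93), RAP2.10 (0.92) and the phosphatase gene PP2CA (0.92), NAC032 to SEC, MBD11 and SOUL-1 (0.94 each), and NAC102 to AT5G24690 (0.84), ATCG00190 (0.83) and AT3G55020 (0.83). These correlations were chosen as the highest of 20777 and share arrays and stages, so they are descriptions.

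Within the set, levels of RD26 and ANAC019 correlated at 0.85 over the 24 arrays, ATAF1 and NAC032 at 0.77, and ANAC019 and ANAC055 at 0.73. With stage means subtracted the same pairs stood at 0.41, 0.68 and 0.37. JUB1 followed no other member closely, with its highest value after stage means were subtracted at 0.44, with ATAF1. Of the chromosomal neighbours, ANAC019 lies beside the NAC gene NAM (r = 0.81 in levels), ANAC055 beside NAC2 (0.59) and VNI2 beside the sugar transporter gene SAG29 (0.93), and none of these 3 neighbours was called for mannitol at any stage. Both neighbours of NAC102 were lower under mannitol in expanding leaf, SHA1 by -0.51 ± 0.10 (adjusted p = 0.00185) and MUM2 by -0.67 ± 0.16 (0.00807), where NAC102 stood at -0.27 ± 0.32 and was not called.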

How the data were processed

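Values are log2 expression levels per locus for 24 ATH1 arrays, deposited by the authors in a single table. RMA (background correction, quantile normalization and probe summary) is named in the submitters' processing notes, while its version is not given in the sources used here, nor is the grouping of probes into loci. The deposited values span 2.52 to 14.4, from which the log2 scale was inferred, and no detection calls or probe signals were used. The number of arrays limits the precision. Groups and replicate numbers were taken from the sample titles and stress labels. The treatment text names mannitol for every sample, so it was not used. Gene names come from a TAIR10.1 gene table, which named 20508 of the 20777 loci and left 269 unnamed.

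Each locus was modelled by its 8 group means in limma 3.58.1 (R 4.3.3), with empirical Bayes variances, two-sided tests and Benjamini-Hochberg adjustment over all loci within each comparison. Differences of the mannitol effect between stages were tested as interaction contrasts and jointly by a moderated F test (3 degrees of freedom). A call is an adjusted p under 0.05. The procedure was tested on simulated data. The members, gene lists, marker lists and named genes were chosen with earlier results of these data known. The text names the 8 measured members throughout, and from each list the genes called in a comparison, at most 4 by smallest p. The reported targets of JUB1, ATAF1 and VNI2, and ERD1, ICS1 and BSMT1, are named besides, a choice made after their values were seen. Likeness is Pearson's r over 24 arrays, and the 3 highest loci per member were taken.

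Alternatives were the replicate number as a block, only the arrays of a comparison, quantile normalization, centring each array on its median, leaving out loci under the 25th percentile of mean level, an intensity trend with robust estimation, and leaving out each array. A check of the pairing showed that same-numbered control and mannitol arrays of a stage deviated together in 11 of 12 pairs (r over 0.1, range 0.06 to 0.43, the exception being replicate 3 of mature leaf), whereas 8 of 72 same-numbered pairs of different stages did. Every pair was over 0.1 in seedlings, proliferating and expanding leaf. The limit of 0.1 is a chosen one. The expanding pairs stood at 0.12, 0.21 and 0.16, and replicates 1 and 2 of mature leaf at 0.29 and 0.42. Whether the pairing is weaker in mature leaf was not tested. A block for each stage and replicate number was added after the data were seen. ATAF2 and the sequences of promoters and proteins were not analysed here.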

Additional observations from a re-analysis of the deposited data

Results flagged for a closer look

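The mannitol effect differed between stages for 3 members by a test of the difference itself. Between mature and expanding leaf the log2 difference was -0.72 for ANAC019 (adjusted p = 0.0417), -0.89 for ANAC055 (0.00208) and -1.09 for JUB1 (0.0154) in limma with 3 arrays per group. Between mature and proliferating leaf it was -0.90 for ANAC055 (0.00168). Over the 4 stages the F value of ANAC055 was 15.8 (0.00158). The JUB1 difference combines a rise in expanding leaf with an effect of 0.09 in mature leaf. The ANAC055 differences combine a fall in mature leaf with effects of -0.04 in expanding and -0.03 in proliferating leaf. The ANAC019 difference lies between 2 effects that did not pass the test singly.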

How the results depend on the processing

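Of 104 values of members by comparison, 84 stayed on the same side of the threshold under every alternative run, and 0 called values changed sign. With the replicate block within each stage, the number of members called was 1 in seedlings, 2 in proliferating leaf, 2 in expanding leaf, 2 for mature minus proliferating leaf and 2 in the F test. With a single replicate block over all stages the counts of members called moved only for mature minus expanding leaf, to 2, where ANAC019 had an adjusted p of 0.0502. With only the arrays of the comparison, 1 member was called in seedlings and 0 in proliferating leaf, and NAC102 was called between mature and expanding control leaf (-0.40, adjusted p = 0.0129). Centring the arrays gave 5 called between expanding and proliferating leaf on control medium and 5 on mannitol. ANAC019 and ANAC055 have mean levels under the 25th percentile of loci, so leaving out such loci removes them from the test and gives 0 called in mature leaf, 1 for mature minus expanding and 0 for mature minus proliferating leaf. The intensity trend gave 2 called in the F test. Leaving out 1 array gave 0 to 0 called in seedlings, 0 to 2 in proliferating, 1 to 2 in expanding and 1 to 2 in mature leaf, 2 to 3 for the mean effect, 0 to 0 for expanding minus proliferating, 1 to 3 for mature minus expanding and 1 to 2 for mature minus proliferating leaf. For development it gave 3 to 4 and 6 to 6 in control leaves, 3 to 4 and 4 to 5 in mannitol leaves, and for the F test 1 to 3. ANAC055 was called between expanding and proliferating leaf without expanding control replicate 3 (0.30, 0.0315) and, on mannitol, without proliferating mannitol replicate 3 (0.29, 0.0454). Unless a sentence gives the reason, the cause was not tested. Over all loci the number called ranged from 185 to 492 in seedlings (301 in the text), 221 to 668 in proliferating (377), 832 to 2184 in expanding (1589) and 476 to 1813 in mature leaf (1003). It ranged from 145 to 534 for expanding minus proliferating (270), 434 to 1339 for mature minus expanding (709), 337 to 1014 for mature minus proliferating leaf (548) and 531 to 1492 for the F test (767). Low signal limits ANAC019, ANAC055 and JUB1, which lay under the 25th percentile of locus means on 16, 18 and 10 of 24 arrays.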
